A study of Mus musculus with 27 samples.

Results

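The genes described here are 10 enzymes and transporters that take glucose into the cell and break it down to lactate, namely Slc2a1, Hk1, Hk2, Pfkl, Pfkp, Aldoa, Pgk1, Eno1, Pkm and Ldha. They were chosen by symbol, and they matched 11 of the 55487 gene identifiers in the deposited tables. Aldoa stood on 2 identifiers, of which the second was at or near 0 in every library and passed the filter on low counts only when all 27 libraries were fitted together. The libraries came from primary mouse cells kept for 24 h with 10 µM 24(S)-saringosterol, a sterol of plants and algae, with 1 µM of a synthetic compound called GW, or with the ethanol vehicle. Each treatment was given to hepatocytes, to microglia and to bone marrow-derived macrophages (BMDM), with 3 libraries in each of the 9 groups. The labels spell the synthetic compound as GW3596, GW3964 and GW3965, and GW3965 is a known agonist of the liver X receptors (LXR). All treatments were serum-free. Hepatocytes sat on collagen in a Williams' E medium, whereas microglia shaken off mixed glial cultures and BMDM grown from marrow with M-CSF were treated in a DMEM/F12 medium with M-CSF, insulin, transferrin, selenium, albumin and pyruvate. Medium and cell type therefore cannot be told apart where hepatocytes are set against the other cells. The labels give no strain, sex, age or genetic change for any group. Nothing in the labels tells whether the libraries within a group are from different animals or culture wells, so p-values measure the spread among libraries alone, which may be technical.

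Glycolysis starts when a facilitative transporter such as GLUT1, the product of Slc2a1, lets glucose into the cell and a hexokinase traps it as glucose 6-phosphate. Phosphofructokinase commits the sugar to breakdown, aldolase splits it, phosphoglycerate kinase and pyruvate kinase make ATP, enolase forms phosphoenolpyruvate, and lactate dehydrogenase turns pyruvate into lactate and restores NAD. Several of these genes are known targets of the hypoxia-inducible factors and of Myc. Activated macrophages and microglia are known for a high rate of glycolysis, while the adult liver also runs the opposite route, gluconeogenesis, and carries liver forms of several of the enzymes.

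Libraries held 30295862 to 41040268 counts. Hepatocyte markers summed to 12896 ± 193 CPM (counts scaled to the library total, SD, n = 3) in vehicle hepatocytes and to no more than 1.52 CPM in any library of microglia or BMDM. Of the bile duct cell markers, Sox9 averaged 118 TPM, Krt19 12.9 TPM, Epcam 2.57 TPM and Krt7 0.0172 TPM in vehicle hepatocytes. Macrophage markers summed to 359 ± 15.3 CPM in vehicle hepatocytes, 41559 ± 1132 CPM in vehicle microglia and 35108 ± 944 CPM in vehicle BMDM. The 9 homeostatic microglia genes summed to 912 ± 12.8 CPM in vehicle microglia and 309 ± 5.27 CPM in vehicle BMDM, and Siglech was at 0 in all 9 microglia libraries. In BMDM, the macrophage sum was 28546 ± 1382 CPM with saringosterol and 33866 ± 912 CPM with GW. The sum of 5 neutrophil markers in BMDM was 34.1 ± 4.50, 26.9 ± 0.661 and 44.2 ± 6.53 CPM with saringosterol, GW and vehicle. The sum of 6 endothelial markers was 55.9 ± 4.58, 87.3 ± 1.04 and 30.4 ± 0.812 CPM in the same order, with Stab2 at 17.9, 28.5 and 9.32 TPM, while Pecam1, Cdh5, Kdr, Clec4g and Tek each averaged no more than 0.754 TPM in BMDM. Astrocyte markers summed to 28.5 ± 2.81, 46.6 ± 3.21 and 39.3 ± 1.11 CPM in microglia with saringosterol, GW and vehicle, with Aldh1l1 at 13.4, 23.7 and 19.9 TPM, Slc1a3 at 2.18, 2.83 and 2.33 TPM and the other 5 at no more than 0.625 TPM on average. Mitochondrial genes held 0.3985% ± 0.0436 of the counts in BMDM with saringosterol, 0.413% ± 0.0421 with GW and 0.573% ± 0.0572 with vehicle. The part of these values in the results below was not tested. BMDM saringosterol library 3 stood apart from its replicates, with chi-square values of 32.29 and 33.54 for each degree of freedom against the other two, where the other 25 replicate pairs had 3.61 to 11.53. In bulk RNA, fewer cells of a type and less RNA per cell cannot be told apart.

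Promoter sequence is shown for the 3 genes whose response to the compounds was largest in microglia or recurred across the cultured macrophages, Slc2a1, Pfkl and Pfkp. Each line gives the 250 bases before the RefSeq start site on GRCm38.p6, written 5′ to 3′ on the strand of the gene, with every ACGTG or GCGTG on either strand in capitals, the core letters that the hypoxia-inducible factors are known to read.
Slc2a1, chr4:119108495-119108744, plus strand: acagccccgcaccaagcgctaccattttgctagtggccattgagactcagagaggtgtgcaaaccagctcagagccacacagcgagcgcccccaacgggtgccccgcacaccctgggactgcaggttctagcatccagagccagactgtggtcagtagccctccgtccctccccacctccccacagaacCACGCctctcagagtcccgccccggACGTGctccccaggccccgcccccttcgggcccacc
Pfkl, chr10:78009808-78010057, minus strand: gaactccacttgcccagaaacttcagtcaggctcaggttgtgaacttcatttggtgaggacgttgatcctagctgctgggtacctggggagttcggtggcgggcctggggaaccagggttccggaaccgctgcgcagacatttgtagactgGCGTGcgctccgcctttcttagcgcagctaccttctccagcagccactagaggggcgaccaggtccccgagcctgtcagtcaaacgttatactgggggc
Pfkp, chr13:6648772-6649021, minus strand: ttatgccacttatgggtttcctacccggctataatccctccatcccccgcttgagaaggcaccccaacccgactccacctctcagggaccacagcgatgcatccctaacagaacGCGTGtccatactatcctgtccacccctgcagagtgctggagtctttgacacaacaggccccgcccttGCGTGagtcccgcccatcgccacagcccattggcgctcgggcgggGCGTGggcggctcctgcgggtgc
The printed stretch of Slc2a1 held 1 ACGTG and 1 GCGTG, that of Pfkl held 1 GCGTG and that of Pfkp held 3 GCGTG. RefSeq gives 17 promoter windows of 300 bases to the 10 genes, each reaching 250 bases before and 50 bases after a start. ACGTG stood in 8 of the 17 windows and in 19.6% of all 32851 windows of the table, and GCGTG in 9 of the 17 and in 32.4% of all. Either motif stood in 14 of the 17 windows, against 43.8% of all, while the median GC content was 65.0% in the windows of these genes and 52.7% in all. The E-box CACGTG, which contains ACGTG, stood in 1 of the 17 windows, that of Ldha, and in 7.15% of all, and the DR4 repeat, a pair of AGGTCA elements that LXR is known to bind and that was searched in its exact form, in 0 of the 17 and in 0.0152% of all. A match is only a match of letters and was not tested as a binding site.

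On GRCm38 the files place Slc2a1 at chr4:119108711-119137983 and Eno1 at chr4:150236721-150248879, Hk1 at chr10:62268855-62379908 and Pfkl at chr10:77986947-78010083, Aldoa at chr7:126795234-126800751 and Ldha at chr7:46841475-46855627. Hk2 lies at chr6:82725025-82774454, Pfkp at chr13:6579768-6648777, Pgk1 at chrX:106187100-106203699 and Pkm at chr9:59656368-59679375. In the GENCODE M21 annotation Pfkl, Pgk1, Eno1 and Ldha overlap no other gene. Slc2a1, Hk1, Hk2, Pfkp, Aldoa and Pkm each overlap at least 1, such as Pitrm1 on the other strand of Pfkp. The strand setting of the counting is not given in the sources used here, so reads of overlapping genes cannot be told apart. Eno1b, a near copy of Eno1, had 17.4% ± 1.27 as many counts as Eno1 (SD, n = 27 libraries), and reads of the pair may be split between them.

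**Figure D1:**
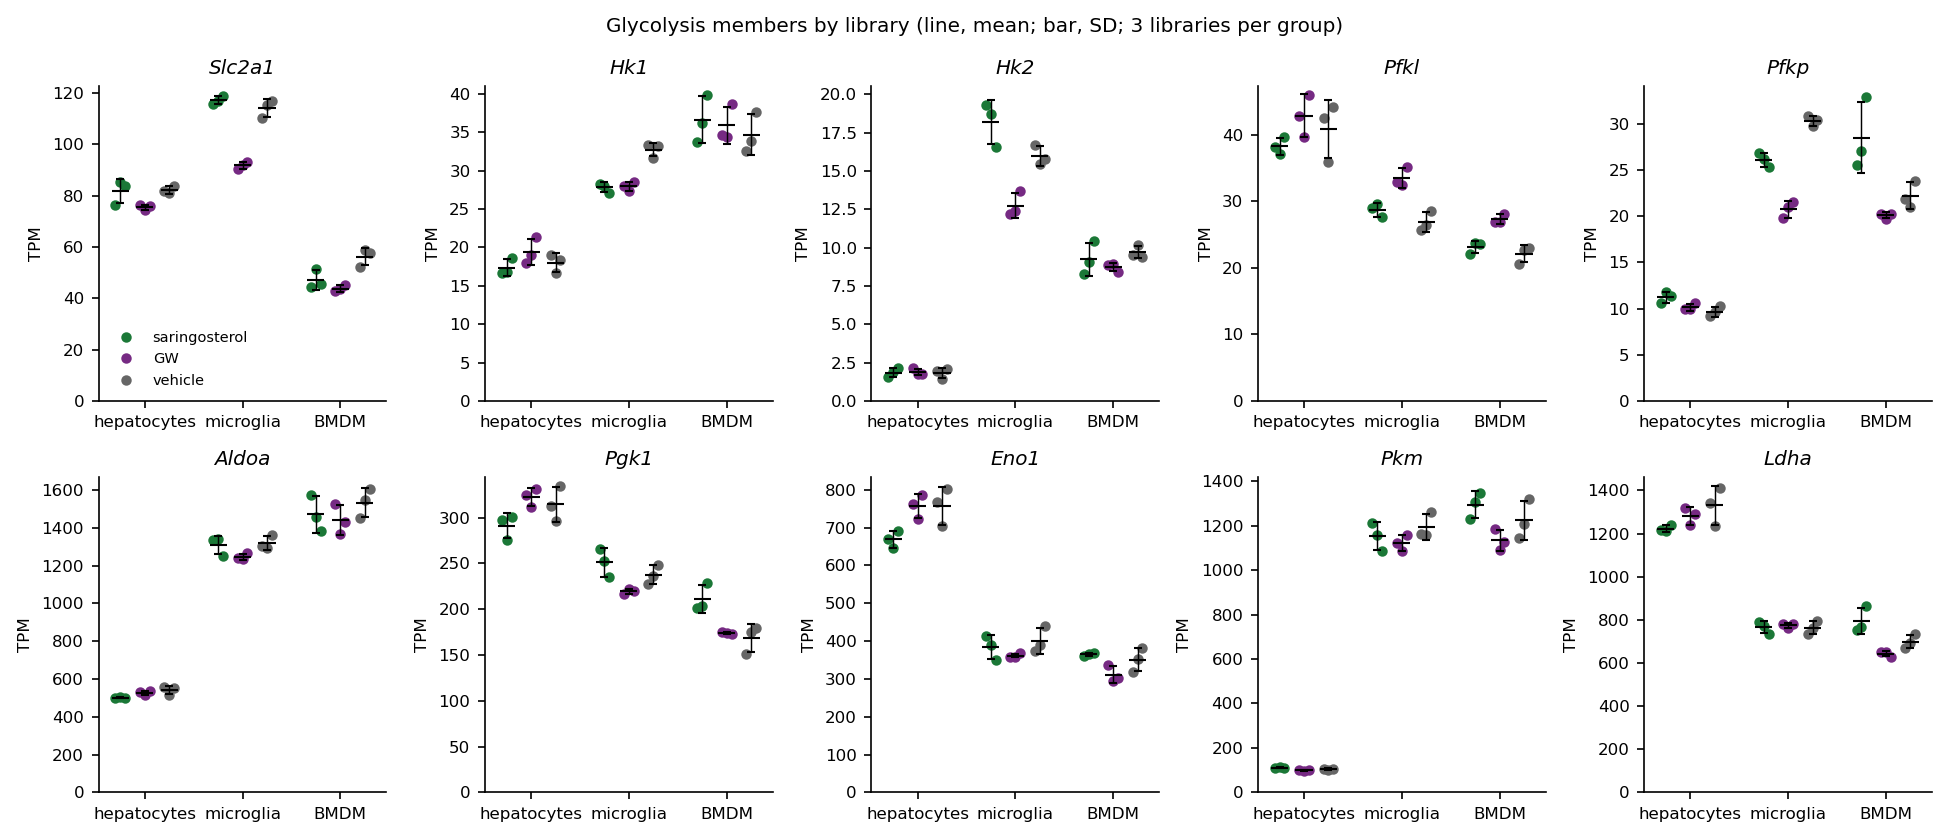
Transcript level (TPM, a unit scaled for gene length and library total; y axes start at 0) of the 10 genes in each library, by cell type and treatment; points are libraries, the line is the mean and the bar the SD of 3 libraries. Pkm lay near 100 TPM in hepatocytes and above 1000 TPM in microglia and BMDM in every treatment, and Slc2a1 was lower with GW than with vehicle in microglia and BMDM.

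With vehicle alone, the 3 kinds of cell carried this pathway in different proportions. Slc2a1, Hk1, Hk2, Pfkp, Aldoa and Pkm were lower in vehicle hepatocytes than in vehicle microglia, while Pfkl, Eno1 and Ldha were higher. Against microglia, 9 of 10 genes passed the test in hepatocytes, 3 higher and 6 lower, where 76.3% of all 17466 genes tested passed, 37.7% higher and 38.6% lower. Against BMDM, 9 of 10 passed, 4 higher and 5 lower, with 78.1% of all genes passing (38.9% higher and 39.2% lower). Between microglia and BMDM, 6 of 10 passed, 4 higher and 2 lower, with 49.1% of all genes passing (25.8% higher and 23.4% lower). These shares were near the background, and the median size of the change, without its sign, was 0.99 on the log2 scale for the 10 genes and 0.94 for all genes between hepatocytes and microglia. All adjusted p values come from edgeR's quasi-likelihood test with Benjamini-Hochberg adjustment over every gene tested, at a threshold of 0.05. Fold changes between cell types are on counts scaled by the trimmed mean of M values (TMM), whereas TPM sets the 10 genes per length within each library. Scaling by library totals moved the median log2 difference of all genes up by 0.39 between hepatocytes and microglia and by 0.40 between hepatocytes and BMDM.

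Slc2a1 had 81.7, 81.00 and 83.8 TPM in hepatocytes, 110.1, 115 and 117 TPM in microglia and 52.3, 58.8 and 57.5 TPM in BMDM with vehicle. Its 3 levels did not overlap, with microglia highest and BMDM lowest. The difference was -0.80 ± 0.06 log2 units (SE) between hepatocytes and microglia, with adjusted p = 1.74e-11, and 0.92 ± 0.06 between microglia and BMDM, with adjusted p = 1.17e-11. Between hepatocytes and BMDM it did not pass (0.12 ± 0.06, adjusted p = 0.0651), but it passed with DESeq2 (0.17, adjusted p = 0.0179), with median-ratio size factors (0.17, adjusted p = 0.0216), without a filter on low counts (0.16, adjusted p = 0.0366), without BMDM vehicle library 3 (0.15, adjusted p = 0.0353) and without hepatocyte vehicle library 2 (0.15, adjusted p = 0.0407). With library totals it was 0.54 (adjusted p = 5.97e-09).

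Hk1, the broadly expressed hexokinase, had 19.01, 16.7 and 18.4 TPM in hepatocytes, 33.3, 31.7 and 33.2 TPM in microglia and 32.6, 33.8 and 37.7 TPM in BMDM. Hepatocytes were lowest without overlap, and microglia and BMDM overlapped. Its log2 difference was -1.18 ± 0.07 (SE) between hepatocytes and microglia, with adjusted p = 3.02e-13, and -0.19 ± 0.07 between microglia and BMDM, with adjusted p = 0.0272. The second call ended without BMDM vehicle library 3 (-0.11, adjusted p = 0.179), microglia vehicle library 1 (-0.19, adjusted p = 0.0608) or microglia vehicle library 2 (-0.17, adjusted p = 0.106), with DESeq2 (adjusted p = 0.0669) and with median-ratio size factors (adjusted p = 0.0554). Hk2, the hexokinase that insulin and hypoxia are known to induce, had 1.95, 1.44 and 2.09 TPM in hepatocytes, 16.7, 15.5 and 15.8 TPM in microglia and 9.53, 10.2 and 9.41 TPM in BMDM. The 3 ranges lay apart, and hepatocytes were -3.45 ± 0.12 log2 units (SE) from microglia, with adjusted p = 4.38e-18.

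Pfkl, the liver-type subunit of phosphofructokinase, had 42.4, 35.9 and 44.2 TPM in hepatocytes, 25.6, 26.4 and 28.5 TPM in microglia and 20.6, 22.7 and 23.03 TPM in BMDM. Hepatocytes were highest without overlap, by 0.28 ± 0.08 log2 units (SE) over microglia, with adjusted p = 0.00233. Between microglia and BMDM it passed only with library totals (0.20, adjusted p = 0.0281) and without BMDM vehicle library 3 (0.22, adjusted p = 0.0467). Pfkp, the platelet-type subunit, ran the other way with 9.17, 9.57 and 10.2 TPM in hepatocytes, 30.8, 29.8 and 30.4 TPM in microglia and 21.8, 20.9 and 23.8 TPM in BMDM. Hepatocytes lay below the other cells without overlap, -1.97 ± 0.06 log2 units (SE) from microglia, with adjusted p = 1.94e-18. Aldoa, the broadly expressed aldolase, had 555, 515 and 552 TPM in hepatocytes, 1301, 1294 and 1359.7 TPM in microglia and 1451, 1544 and 1604 TPM in BMDM. Its level in hepatocytes stood apart from the others, -1.61 ± 0.06 log2 units (SE) from microglia, with adjusted p = 9.96e-18.

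Pgk1, which makes the first ATP of the pathway, had 312, 297 and 335 TPM in hepatocytes, 228, 236 and 249 TPM in microglia and 152, 176 and 179.5 TPM in BMDM. In TPM the hepatocyte libraries were all higher, but on the TMM scale the difference from microglia did not pass (0.08 ± 0.07 SE, adjusted p = 0.268; 0.47 with library totals, adjusted p = 2.14e-07). Eno1, the enolase of most tissues, had 767, 704 and 801 TPM in hepatocytes, 373, 391 and 439 TPM in microglia and 319, 352 and 382 TPM in BMDM. Hepatocytes were highest without overlap, 0.59 ± 0.08 log2 units (SE) over microglia, with adjusted p = 7.06e-07.

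Pkm, the pyruvate kinase of muscle, brain and blood cells, had 107, 99.5 and 107 TPM in hepatocytes, 1161, 1159.6 and 1263 TPM in microglia and 1144, 1209 and 1319 TPM in BMDM. Its level in hepatocytes was the farthest from the other cells of the 10 genes, -3.84 ± 0.07 log2 units (SE) from microglia and -3.98 ± 0.07 from BMDM, with adjusted p = 4.77e-23 and 2.64e-23. Between microglia and BMDM Pkm did not pass, but it passed in 5 alternatives (-0.19 to -0.14), among them without BMDM vehicle library 1 (-0.19, adjusted p = 0.00934) and without microglia vehicle library 3 (-0.18, adjusted p = 0.0279). Ldha, which makes lactate, had 1344, 1235 and 1413 TPM in hepatocytes, 736, 760.4 and 796 TPM in microglia and 672, 692 and 735 TPM in BMDM. Hepatocytes were highest without overlap, 0.48 ± 0.06 log2 units (SE) over microglia, with adjusted p = 1.24e-07. The summed level of the 10 genes was 3201 ± 189 TPM in vehicle hepatocytes, 4136 ± 172 TPM in vehicle microglia and 4122 ± 248 TPM in vehicle BMDM (SD, n = 3).

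**Figure D2:**
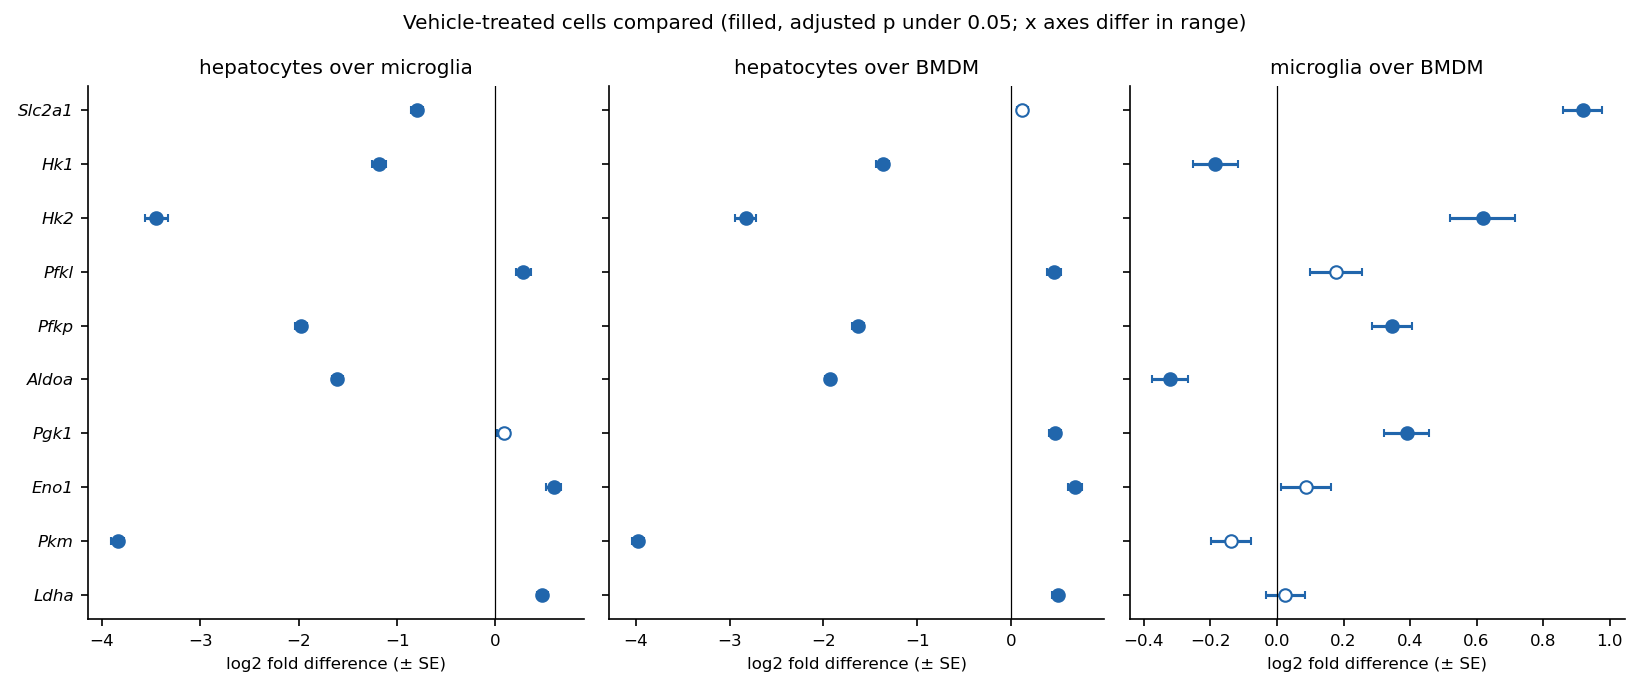
Log2 fold difference (x axes, ± SE) of each gene between vehicle-treated cell types, hepatocytes over microglia, hepatocytes over BMDM and microglia over BMDM, from the fit of the 9 vehicle libraries; filled points passed at an adjusted p under 0.05, and the x axes differ in range. Pkm and Hk2 lay farthest below 0 in hepatocytes, and Slc2a1 farthest above 0 in microglia over BMDM.

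Isozymes of 3 steps were set beside the members. Hk3, a hexokinase of myeloid cells, made up 92.9% ± 0.198 of the summed TPM of Hk1, Hk2, Hk3 and Hkdc1 in vehicle microglia and 89.3% ± 0.226 in vehicle BMDM (SD, n = 3), so that Hk1 and Hk2 were minor there in TPM. In vehicle hepatocytes Hk1 made up 76.7% ± 0.835, Hkdc1 15.4% ± 1.78 and Hk2 7.74% ± 1.13. Pklr, the pyruvate kinase of liver and red cells, held 60.7% ± 0.345 of pyruvate kinase TPM in vehicle hepatocytes and Pkm the other 39.3% ± 0.345. These shares are descriptions with no test.

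The mix of phosphofructokinase subunits in microglia is given here for each treatment, with no test. Pfkl made up 48.1% ± 0.858 of phosphofructokinase TPM with saringosterol, 54.9% ± 1.23 with GW and 42.8% ± 1.59 with vehicle (SD, n = 3), and Pfkp made up 43.8% ± 0.798, 34.00% ± 0.625 and 48.4% ± 1.24 in the same order. In BMDM, Pfkl made up 40.9% ± 2.39 with saringosterol, 50.7% ± 0.47 with GW and 45.4% ± 2.07 with vehicle, and in hepatocytes 66.1% ± 1.05, 70.8% ± 0.627 and 70.2% ± 2.80. Slc2a1 held 93.3% ± 4.49 of the TPM of Slc2a1 to Slc2a4 in BMDM with saringosterol, 94.6% ± 0.673 with GW and 97.9% ± 0.152 with vehicle. Slc2a4 held 3.77% ± 3.93, 2.54% ± 0.222 and 0.419% ± 0.398 there in the same order, at 1.91, 1.18 and 0.243 TPM on average. Its share ran from 1.19% to 8.30% among the saringosterol libraries. Slc2a3 held 2.91% ± 0.581, 2.89% ± 0.451 and 1.67% ± 0.538. In vehicle hepatocytes Slc2a1 held 96.8% ± 0.298 and Slc2a2, the liver transporter, 3.21% ± 0.315. Ldha held at least 92.9% of lactate dehydrogenase TPM on average in every group.

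**Figure D3:**
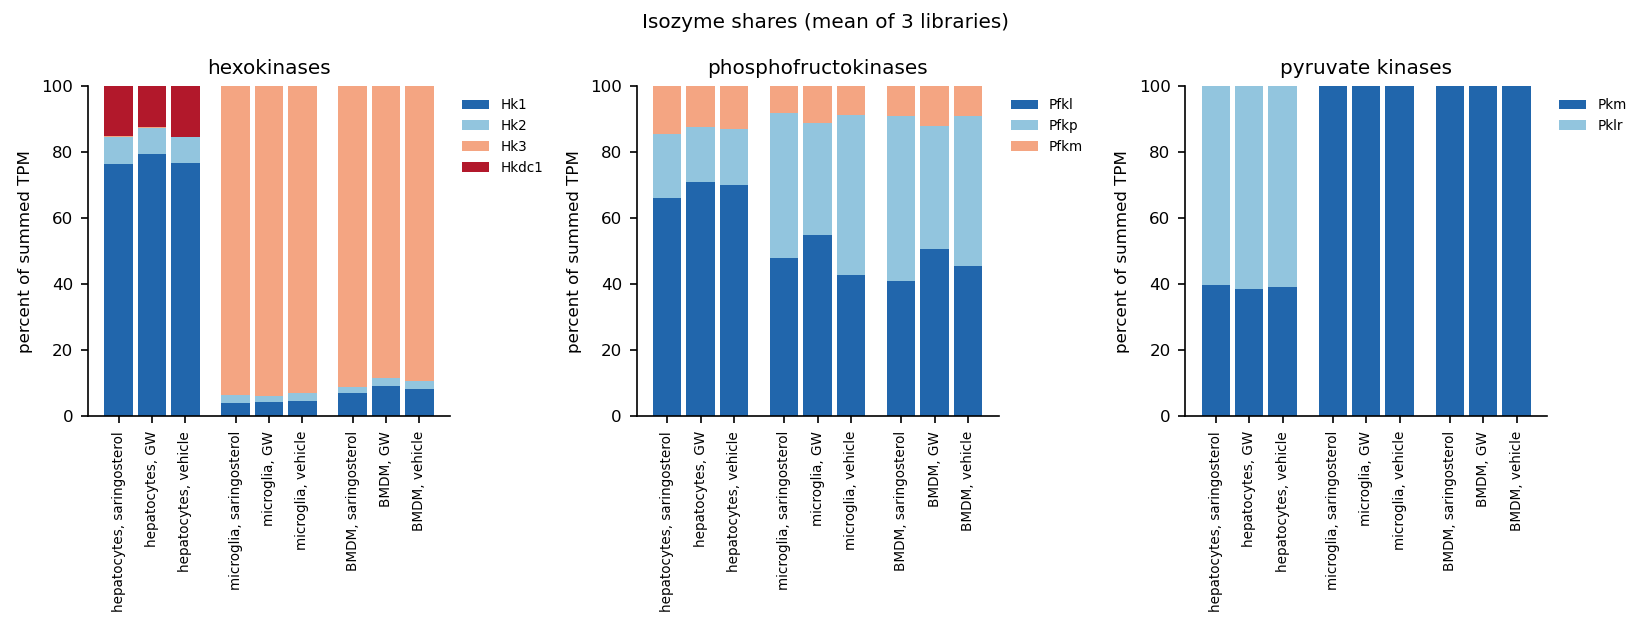
Percent of summed TPM (y axes, 0 to 100) held by each isozyme of hexokinase (Hk1, Hk2, Hk3 and Hkdc1), phosphofructokinase and pyruvate kinase in the 9 groups, as the mean of 3 libraries. Hk3 filled most of the hexokinase bar in microglia and BMDM, Pklr the larger part of the pyruvate kinase bar in hepatocytes, and Pfkl a larger part of the phosphofructokinase bar with GW than with vehicle in microglia and BMDM.

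Against vehicle, at most 5 of the 10 genes passed in any of the 6 comparisons. GW moved the most genes in microglia, where Pfkl rose and Slc2a1, Hk1, Hk2 and Pfkp fell, 5 of 10, with 28.7% of all genes passing (13.4% higher and 15.2% lower). Saringosterol lowered Hk1 and Pfkp in microglia, 2 of 10, with 10.8% of all genes passing (4.19% higher and 6.66% lower). In BMDM, saringosterol raised Pfkp and Pgk1 and lowered Slc2a1, 3 of 10, with 10.7% of all genes passing (5.53% higher and 5.12% lower). Without saringosterol library 3, which had the highest TPM of its group for Pfkp, Pgk1 and Ldha, 1 of 10 passed, Slc2a1 (-0.30, adjusted p = 0.00742). GW in BMDM raised Pfkl and lowered Slc2a1, 2 of 10, with 10.4% of all genes passing (5.66% higher and 4.76% lower). In hepatocytes, saringosterol lowered Eno1, 1 of 10, with 1.91% of all genes passing (0.888% higher and 1.02% lower). GW moved 0 of 10 there by edgeR, DESeq2 and limma-voom, with 1.11% of all genes passing (0.721% higher and 0.385% lower) and 1 of the 10, Slc2a1, at an unadjusted p under 0.05.

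The size of change of the 10 genes was set beside that of all genes tested. Their median log2 fold change without its sign was 0.07 with saringosterol and 0.12 with GW in microglia, against 0.13 and 0.20 for all genes tested. In BMDM it was 0.12 and 0.16, against 0.17 and 0.17, and in hepatocytes 0.10 and 0.06, against 0.11 and 0.09. The signed medians of the 10 genes lay between -0.14, with GW in BMDM, and 0.02, with GW in hepatocytes. The compounds differ in dose (10 µM saringosterol and 1 µM GW) and share the vehicle libraries of each cell type, so their values stand side by side and were not compared with each other.

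**Figure D4:**
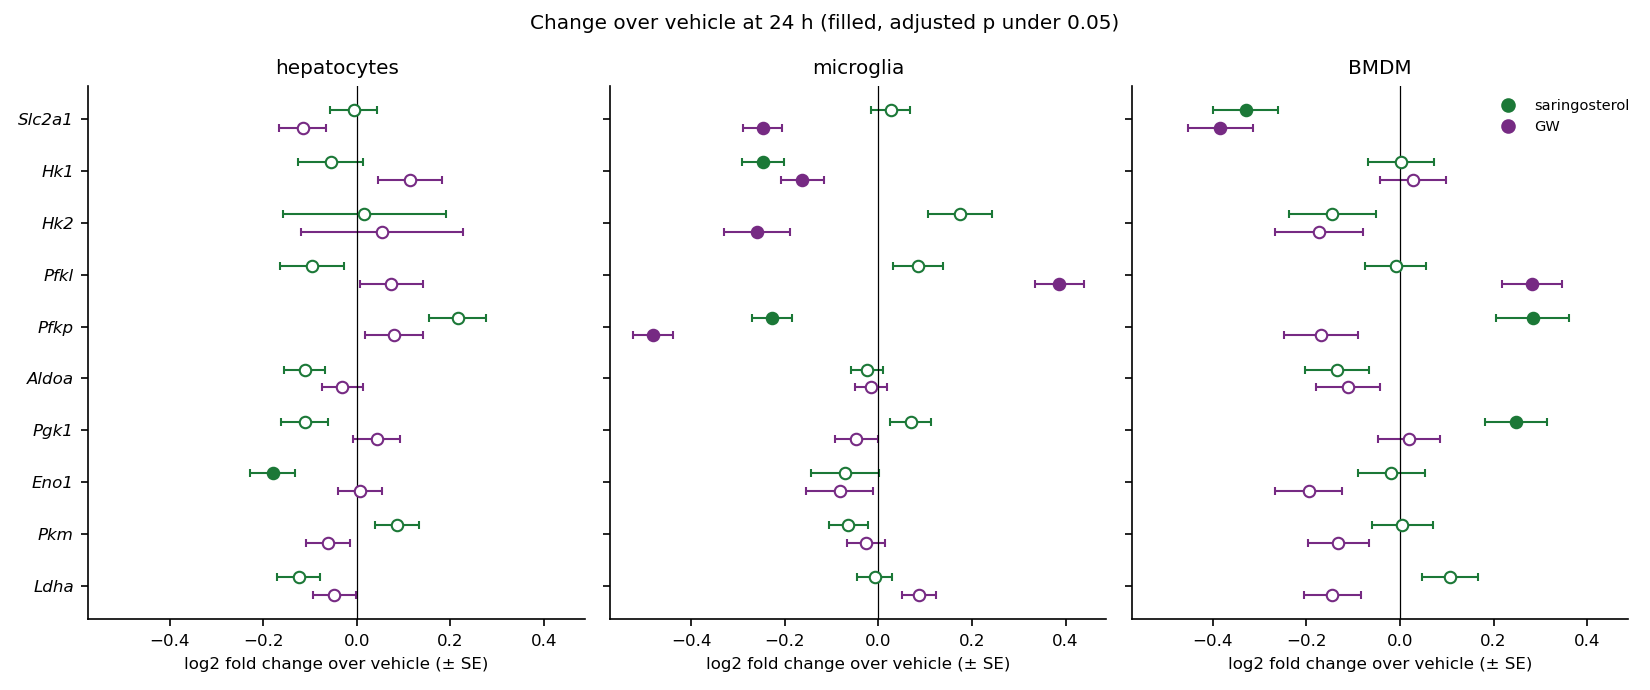
Log2 fold change over vehicle (x axes, ± SE) of the 10 genes with saringosterol and GW in hepatocytes, microglia and BMDM, from one fit of 9 libraries per cell type; filled points passed at an adjusted p under 0.05. The filled points farthest from 0 are Pfkp below and Pfkl above with GW in microglia, and no GW point is filled in hepatocytes.

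Slc2a1, the glucose transporter, fell with GW in microglia and with both compounds in BMDM. In microglia it had 116, 117 and 119 TPM with saringosterol, 90.3, 91.97 and 93.2 TPM with GW and 110.1, 115 and 117 TPM with vehicle. All 3 GW libraries lay below all vehicle libraries, and those of saringosterol overlapped vehicle. GW gave a log2 fold change of -0.25 ± 0.04 (SE), adjusted p = 2.41e-05, and saringosterol a log2 fold change of 0.03 ± 0.04 (SE), adjusted p = 0.782. In BMDM it had 44.5, 51.5 and 45.4 TPM with saringosterol, 42.7, 43.5 and 45.1 TPM with GW and 52.3, 58.8 and 57.5 TPM with vehicle. All treated libraries lay below all vehicle libraries. Saringosterol gave a log2 fold change of -0.33 ± 0.07 (SE), adjusted p = 0.00414, and GW gave -0.38 ± 0.07 (SE) with adjusted p = 0.00105. In hepatocytes it had 76.5, 85.5 and 83.7 TPM with saringosterol, 76.2, 74.3 and 75.99 TPM with GW and 81.7, 81.00 and 83.8 TPM with vehicle. The 3 GW libraries were lower than the vehicle libraries, but neither compound passed there (-0.12 ± 0.05 SE with GW, adjusted p = 0.506).

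Hk1 fell with both compounds in microglia, with 28.3, 28.1 and 27.1 TPM with saringosterol, 28.03, 27.3 and 28.5 TPM with GW and 33.3, 31.7 and 33.2 TPM with vehicle. Every treated library lay below every vehicle library. Saringosterol gave a log2 fold change of -0.25 ± 0.05 (SE), adjusted p = 0.000229, and GW gave -0.16 ± 0.05 (SE), adjusted p = 0.00609. In BMDM and hepatocytes its ranges overlapped those of vehicle with both compounds, and its log2 fold changes lay between -0.06 and 0.11. Hk2 had 19.3, 18.7 and 16.5 TPM with saringosterol, 12.2, 12.4 and 13.7 TPM with GW and 16.7, 15.5 and 15.8 TPM with vehicle in microglia. The GW libraries were all lower than vehicle, while 1 saringosterol library lay within the vehicle range. GW lowered Hk2 with a log2 fold change of -0.26 ± 0.07 (SE), adjusted p = 0.0046. With saringosterol the value was 0.17 ± 0.07 (SE), adjusted p = 0.106, and 0.24 with adjusted p = 0.0265 without saringosterol library 3. In BMDM Hk2 had 8.27, 9.04 and 10.4 TPM with saringosterol, 8.85, 8.95 and 8.42 TPM with GW and 9.53, 10.2 and 9.41 TPM with vehicle, and neither value passed.

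Pfkl, one of 3 subunits that form phosphofructokinase, rose with GW in both microglia and BMDM. In microglia it had 28.9, 29.5 and 27.6 TPM with saringosterol, 32.9, 32.4 and 35.2 TPM with GW and 25.6, 26.4 and 28.5 TPM with vehicle. Every GW library lay above every vehicle library. GW gave a log2 fold change of 0.39 ± 0.05 (SE), adjusted p = 6.82e-07, against 0.08 ± 0.05 (SE), adjusted p = 0.371, with saringosterol. In BMDM Pfkl had 22.1, 23.8 and 23.6 TPM with saringosterol, 26.9, 26.9 and 28.1 TPM with GW and 20.6, 22.7 and 23.03 TPM with vehicle. The GW libraries again lay apart, and saringosterol overlapped vehicle. The values were 0.28 ± 0.06 (SE), adjusted p = 0.00775, with GW and -0.01 ± 0.07, adjusted p = 0.954, with saringosterol. In hepatocytes Pfkl had 38.1, 37.1 and 39.6 TPM with saringosterol, 42.9, 39.6 and 46.00 TPM with GW and 42.4, 35.9 and 44.2 TPM with vehicle. All 3 groups overlapped there.

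Pfkp, the platelet-type subunit, had 26.8, 26.2 and 25.3 TPM with saringosterol, 19.7, 20.9 and 21.5 TPM with GW and 30.8, 29.8 and 30.4 TPM with vehicle in microglia. The 3 groups did not overlap, with vehicle highest and GW lowest. GW gave a log2 fold change of -0.48 ± 0.04 (SE), adjusted p = 2.25e-10, and saringosterol -0.23 ± 0.04 (SE), adjusted p = 0.000314. In BMDM it had 25.6, 27.02 and 32.9 TPM with saringosterol, 20.3, 19.7 and 20.3 TPM with GW and 21.8, 20.9 and 23.8 TPM with vehicle. Saringosterol was higher than vehicle without overlap there, with its library 3 the highest, and GW was lower than vehicle without overlap. Saringosterol gave 0.28 ± 0.08 (SE), adjusted p = 0.029. That call ended without saringosterol library 3 (0.17, adjusted p = 0.0961), vehicle library 1 (0.28, adjusted p = 0.106) or vehicle library 2 (0.24, adjusted p = 0.139). GW gave -0.17 ± 0.08, adjusted p = 0.201. In hepatocytes Pfkp had 10.6, 11.7 and 11.3 TPM with saringosterol, 9.95, 9.93 and 10.6 TPM with GW and 9.17, 9.57 and 10.2 TPM with vehicle. The saringosterol libraries were all higher than vehicle, with 0.22 ± 0.06 (SE) and adjusted p = 0.0667, which passed with DESeq2 (0.22, adjusted p = 0.0227), with library totals (0.24, adjusted p = 0.0466) and with a replicate block (0.22, adjusted p = 0.0249).

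Aldoa had no value that passed against vehicle in any cell type. It had 1573, 1459 and 1381 TPM with saringosterol, 1526, 1367 and 1429.9 TPM with GW and 1451, 1544 and 1604 TPM with vehicle in BMDM, and the 3 groups overlapped. Its log2 fold changes lay between -0.13, with saringosterol in BMDM, and -0.02, with GW in microglia. In hepatocytes saringosterol gave -0.11 ± 0.04 (SE), adjusted p = 0.196, and -0.15 with adjusted p = 0.0370 without vehicle library 2.

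Pgk1 rose with saringosterol in BMDM, where it had 201, 204 and 229 TPM with saringosterol, 175, 174 and 173 TPM with GW and 152, 176 and 179.5 TPM with vehicle. The saringosterol libraries lay above all others, and GW overlapped vehicle. Saringosterol gave a log2 fold change of 0.25 ± 0.07 (SE), adjusted p = 0.0201. The call ended without saringosterol library 3 (0.19, adjusted p = 0.0638), vehicle library 1 (0.19, adjusted p = 0.100) or vehicle library 2 (0.27, adjusted p = 0.0514). In microglia Pgk1 had 266, 252 and 235 TPM with saringosterol, 217, 223 and 219.8 TPM with GW and 228, 236 and 249 TPM with vehicle, and no value passed, although the GW libraries were lower in TPM without overlap. Saringosterol hepatocytes gave -0.11 ± 0.05 (SE), adjusted p = 0.261.

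Eno1 fell with saringosterol in hepatocytes, where it had 671, 646 and 690.1 TPM with saringosterol, 763, 724 and 785 TPM with GW and 767, 704 and 801 TPM with vehicle. The saringosterol libraries lay below all vehicle libraries, while GW overlapped vehicle. Saringosterol gave a log2 fold change of -0.18 ± 0.05 (SE), adjusted p = 0.0431. The call ended without saringosterol library 1 (-0.20, adjusted p = 0.0567), 2 (-0.15, adjusted p = 0.268) or 3 (-0.18, adjusted p = 0.0716) and without vehicle library 1 (-0.16, adjusted p = 0.161) or 3 (-0.14, adjusted p = 0.296), as well as with library totals (-0.16, adjusted p = 0.0617) and with the counts of Eno1b added (-0.17, adjusted p = 0.0538). In BMDM Eno1 had 362, 366 and 369 TPM with saringosterol, 337, 294 and 303 TPM with GW and 319, 352 and 382 TPM with vehicle. GW gave -0.20 ± 0.07 (SE), adjusted p = 0.0903. That value passed with the counts of Eno1b added (-0.23, adjusted p = 0.0421), with library totals (-0.23, adjusted p = 0.0249), without a filter on low counts (-0.19, adjusted p = 0.0161), without GW library 1 (-0.28, adjusted p = 0.0219) and without vehicle library 1 (-0.25, adjusted p = 0.0485). Eno1b itself fell with GW in BMDM, with -0.40 ± 0.07 log2 units (SE), adjusted p = 0.000372.

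Pkm and Ldha, which close the pathway, passed in none of the 6 comparisons with vehicle. Pkm had 1210.3, 1159 and 1087 TPM with saringosterol, 1122, 1084 and 1156 TPM with GW and 1161, 1159.6 and 1263 TPM with vehicle in microglia and 1231, 1304 and 1348 TPM with saringosterol, 1184, 1092 and 1126 TPM with GW and 1144, 1209 and 1319 TPM with vehicle in BMDM. The groups overlapped in BMDM, and in microglia the GW libraries lay just below vehicle. Its log2 fold changes lay between -0.13, with GW in BMDM, and 0.09, with saringosterol in hepatocytes. Ldha had 751, 768 and 863 TPM with saringosterol, 649, 649.8 and 629.6 TPM with GW and 672, 692 and 735 TPM with vehicle in BMDM. In TPM, saringosterol lay above vehicle and GW below it without overlap, with log2 fold changes of 0.11 ± 0.06 (SE), adjusted p = 0.284, and -0.14 ± 0.06, adjusted p = 0.14. Without saringosterol library 3 the first was 0.04 (adjusted p = 0.698), and the second passed with library totals (-0.18, adjusted p = 0.0477). In microglia GW gave 0.09 ± 0.04, adjusted p = 0.0818, which passed without vehicle library 3 (0.13, adjusted p = 0.0134) and with limma-voom (0.09, adjusted p = 0.0485). In hepatocytes saringosterol gave -0.12 ± 0.05, adjusted p = 0.171, and -0.18 with adjusted p = 0.0102 without vehicle library 2.

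For GW in hepatocytes, the 95% intervals of the 10 log2 fold changes reached at most from -0.29 to 0.39, and those ends belonged to Hk2, which had 1.54, 1.86 and 2.14 TPM with saringosterol, 2.12, 1.76 and 1.78 TPM with GW and 1.95, 1.44 and 2.09 TPM with vehicle in hepatocytes. The intervals of the 9 genes that did not pass with saringosterol in hepatocytes reached from -0.33 to 0.36. A p above the threshold does not show that a gene did not differ. The summed level of the 10 genes was 2946 ± 47.7 TPM with saringosterol, 3139 ± 95.5 TPM with GW and 3201 ± 189 TPM with vehicle in hepatocytes. It was 4081 ± 185, 3910 ± 69.6 and 4136 ± 172 TPM in microglia, and 4281 ± 52.8, 3839 ± 150.4 and 4122 ± 248 TPM in BMDM (SD, n = 3 each, in the same order). TPM has a fixed total per library, so these sums also depend on all other genes. Apoe averaged 29564 TPM with GW and 11957 TPM with vehicle in microglia, and 43090 and 20287 TPM in BMDM. Scaling by library totals moved the median log2 fold change of all genes by -0.06 for GW in microglia. The sums were not tested.

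Whether a response differed between cell types was tested directly, as an interaction in one fit of all 27 libraries over 18979 genes and 11 identifiers of the members. For saringosterol, 1 of 11 passed between hepatocytes and microglia, 3 of 11 between hepatocytes and BMDM and 2 of 11 between microglia and BMDM, with 1.18%, 10.1% and 2.01% of all genes passing. For GW, 2 of 11 passed between hepatocytes and microglia, 0 of 11 between hepatocytes and BMDM and 1 of 11 between microglia and BMDM, with 8.69%, 4.74% and 9.71% of all genes passing. Beside the 0 of 11 by edgeR stand 3 of 11 at an unadjusted p under 0.05 and 1 of 11 with DESeq2, Slc2a1 (0.23, adjusted p = 0.0455). Pfkp differed in 4 of these 6 comparisons. Its response to saringosterol was -0.52 ± 0.09 log2 units (SE) in microglia minus BMDM, with adjusted p = 0.00179, and its response to GW was 0.54 ± 0.10 in hepatocytes minus microglia, with adjusted p = 0.000169. No library left out and no setting tried ended either of these calls. Pgk1 differed in its response to saringosterol by -0.40 ± 0.09 between hepatocytes and BMDM, with adjusted p = 0.0039, and that call also held in each run.

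The other enzymes and transporters of the pathway, a list of 26 genes, gave 6 higher and 1 lower of 21 tested with GW in microglia and 2 higher and 2 lower with saringosterol. Of all genes tested in microglia, 13.4% were higher and 15.2% lower with GW and 4.19% and 6.66% with saringosterol. Slc2a4, the insulin-responsive transporter GLUT4, averaged 1.66 ± 0.137 TPM with saringosterol and 3.02 ± 0.505 TPM with GW, against 0.548 ± 0.0846 TPM with vehicle (SD, n = 3), changes of 1.58 ± 0.25 and 2.52 ± 0.24 log2 units (SE). Aldoc, the aldolase known from brain, fell with saringosterol and rose with GW, with 4.45 ± 0.791 TPM with saringosterol and 17.2 ± 0.819 TPM with GW, against 7.82 ± 0.687 TPM with vehicle, which gave -0.82 ± 0.12 and 1.20 ± 0.11 log2 units. Slc2a6 and Slc2a8, transporters of internal membranes, rose with GW by 0.48 ± 0.05 and 0.44 ± 0.06 log2 units. With saringosterol, Pfkfb3, which makes an activator of phosphofructokinase, rose with 0.21 ± 0.06 log2 units and its relative Pfkfb4 fell with -0.25 ± 0.06. Aldoc is also known as an astrocyte gene. Aldh1l1, the astrocyte marker with the highest TPM in microglia, was lower with saringosterol and higher with GW than with vehicle there. It averaged 6.99, 12.8 and 12.2 TPM in BMDM with saringosterol, GW and vehicle, and 76.03 TPM in vehicle hepatocytes. In the same order, Slc1a3 averaged 2.18, 2.83 and 2.33 TPM in microglia. Gfap averaged 0.265, 0.389 and 0.452 TPM there and S100b 0.625, 0.526 and 0.568 TPM. Aqp4 averaged no more than 0.111 TPM. The part of these markers in the result was not tested.

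In BMDM the same list gave 1 higher and 4 lower of 21 with saringosterol and 2 higher and 0 lower with GW. Of all genes tested in BMDM, 5.53% were higher and 5.12% lower with saringosterol and 5.66% and 4.76% with GW. Saringosterol lowered Aldoc to 5.38 ± 1.72 TPM, against 17.9 ± 2.79 TPM with vehicle, and Ldhb, the heart-type lactate dehydrogenase, to 35.97 ± 7.63 TPM, against 51.9 ± 2.37 TPM with vehicle (SD, n = 3), which gave -1.80 ± 0.21 and -0.61 ± 0.12 log2 units (SE). It also lowered Pfkfb4 (-0.46 ± 0.06) and Slc2a6 (-0.36 ± 0.09), of which Slc2a6 did not pass without saringosterol library 1 (-0.31, adjusted p = 0.0594) or 2 (-0.31, adjusted p = 0.0853) or vehicle library 3 (-0.27, adjusted p = 0.0863). The gene that rose was Hk3, with 468 TPM on average against 369 TPM with vehicle (0.27 ± 0.07 log2 units, SE, adjusted p = 0.0237), a call that ended without saringosterol library 3 (0.15, adjusted p = 0.0807) or vehicle library 1 (0.26, adjusted p = 0.0981) or 2 (0.25, adjusted p = 0.106). GW raised Pfkm, the muscle-type phosphofructokinase subunit, to 6.47 ± 0.419 TPM, against 4.35 ± 0.685 TPM with vehicle, and raised Slc2a6 by 0.34 ± 0.09 log2 units. In hepatocytes saringosterol raised Slc2a2, the liver transporter GLUT2, to 3.86 ± 0.294 TPM, against 2.72 ± 0.3 TPM with vehicle, and lowered Gapdh to 733 ± 60.4 TPM, against 870.3 ± 45.2 TPM with vehicle, 1 higher and 1 lower of 22, where 0.888% of all genes were higher and 1.02% lower. GW moved 0 of 22, where 1.11% of all genes passed.

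Genes of pyruvate and lactate handling gave 4 higher and 1 lower of 17 with saringosterol in microglia, 7 and 2 with GW in microglia, 2 and 1 with saringosterol in BMDM, 1 and 0 with GW in BMDM, and 0 of 18 in hepatocytes with either compound. In the same 6 comparisons 10.8%, 28.7%, 10.7%, 10.4%, 1.91% and 1.11% of all genes passed in either direction, which is also the background of the gluconeogenesis and glycogen counts. In microglia GW raised Pdp2, a phosphatase that switches pyruvate dehydrogenase on, by 1.13 ± 0.10 log2 units (SE), and Pdk1, a kinase that switches it off, by 0.53 ± 0.05, and lowered Pcx, pyruvate carboxylase, with -0.55 ± 0.11. Saringosterol lowered the related kinase Pdk2 in microglia (-0.44 ± 0.10) and in BMDM (-0.48 ± 0.10). Slc16a7, a carrier of pyruvate and lactate, rose in microglia with saringosterol (0.24 ± 0.07) and with GW (0.55 ± 0.07). Gluconeogenesis genes gave 0 higher and 1 lower of 4 with saringosterol in microglia, 1 and 0 with GW in microglia, 0 and 1 with saringosterol in BMDM and none of 4 with GW in BMDM, and none of 7 in hepatocytes. The gene that fell in BMDM was Fbp1, fructose bisphosphatase, with -0.85 ± 0.23, a call that ended without saringosterol library 2 (-0.81, adjusted p = 0.0678) or 3 (-0.75, adjusted p = 0.0653) or vehicle library 2 (-0.73, adjusted p = 0.106). Glycogen genes gave 0 higher and 2 lower of 9 with saringosterol in microglia, where Pygl, the liver glycogen phosphorylase, fell with -0.18 ± 0.04, and 2 higher and 0 lower with GW. In BMDM they gave 1 higher and 1 lower of 9 with each compound, and in hepatocytes 0 of 10.

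Of 16 tested genes known to answer hypoxia, 2 rose with saringosterol in microglia, 7 with GW in microglia, 2 with saringosterol in BMDM and 3 with GW in BMDM, with none lower in these 4 comparisons. The share of all genes that rose was 4.19%, 13.4%, 5.53% and 5.66% in the same order. Vegfa, the vascular growth factor, averaged 9.10 ± 0.283 TPM with saringosterol and 9.23 ± 1.30 TPM with GW in microglia, against 5.41 ± 0.187 TPM with vehicle, and 5.48 ± 1.35 TPM with GW in BMDM, against 1.87 ± 0.367 TPM with vehicle (SD, n = 3). In hepatocytes Ddit4, a stress-induced inhibitor of mTOR signalling, fell with saringosterol (-0.31 ± 0.07), 0 higher and 1 lower of 16, and GW moved none of 16. Of all genes tested there, 1.02% fell with saringosterol and 1.11% passed with GW. Among regulators of glucose use, 3 of 9 rose and 1 fell with saringosterol in microglia, 3 rose and 3 fell with GW in microglia, 2 rose and 3 fell with saringosterol in BMDM, and 1 rose with GW in BMDM, where 6.66%, 15.2%, 5.12% and 4.76% of all genes fell. Txnip, which is known to hold back glucose uptake, fell to 248 ± 7.25 TPM with saringosterol and 163 ± 2.46 TPM with GW in microglia, against 353 ± 3.71 TPM with vehicle, and to 261 ± 7.60 TPM with saringosterol in BMDM, against 400.2 ± 20.8 TPM with vehicle. Its relative Arrdc4 fell with GW in microglia (-0.97 ± 0.07) and with saringosterol in BMDM (-0.56 ± 0.08). In hepatocytes 0 of 11 regulators moved with saringosterol and 1, Srebf1, rose with GW (1.32 ± 0.07). There 1.91% of all genes passed with saringosterol, and 0.721% rose with GW.

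Known LXR targets were read beside these lists as a check of the compounds. All 10 rose with each compound in microglia and with GW in BMDM, and 9 of 10 with saringosterol in BMDM. In hepatocytes 7 of 10 rose with GW, while with saringosterol none rose and 1, Fasn, fell (-0.54 ± 0.06 log2 units, SE). Of all genes tested, 4.19% rose with saringosterol and 13.4% with GW in microglia, and 5.53% and 5.66% in BMDM. In hepatocytes 0.888% rose and 1.02% fell with saringosterol, and 0.721% rose with GW. Abca1, the cholesterol exporter, rose by 1.71 ± 0.03 with saringosterol and 2.16 ± 0.04 with GW in microglia. Srebf1 stands both in this list and among the regulators. The median log2 fold change of the LXR targets was 0.97 with saringosterol and 2.00 with GW in microglia, 0.92 and 1.89 in BMDM, and -0.09 and 1.47 in hepatocytes. The medians of the other 6 lists lay between -0.27 and 0.10 with saringosterol and between -0.06 and 0.13 with GW in microglia. They lay between -0.06 and 0.11 and between -0.07 and 0.16 in BMDM, and between -0.13 and 0.03 and between -0.05 and 0.07 in hepatocytes. Over all genes tested, the 6 medians lay between -0.01 and 0.00. Without BMDM saringosterol library 3, an alternative chosen after seeing the data, saringosterol in BMDM gave 1 higher and 4 lower of the other glycolysis genes, 2 and 1 of the pyruvate genes, 0 and 0 of gluconeogenesis, 0 and 1 of glycogen, 1 and 0 of hypoxia, 2 and 2 of the regulators and 9 and 0 of the LXR targets.

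**Figure D5:**
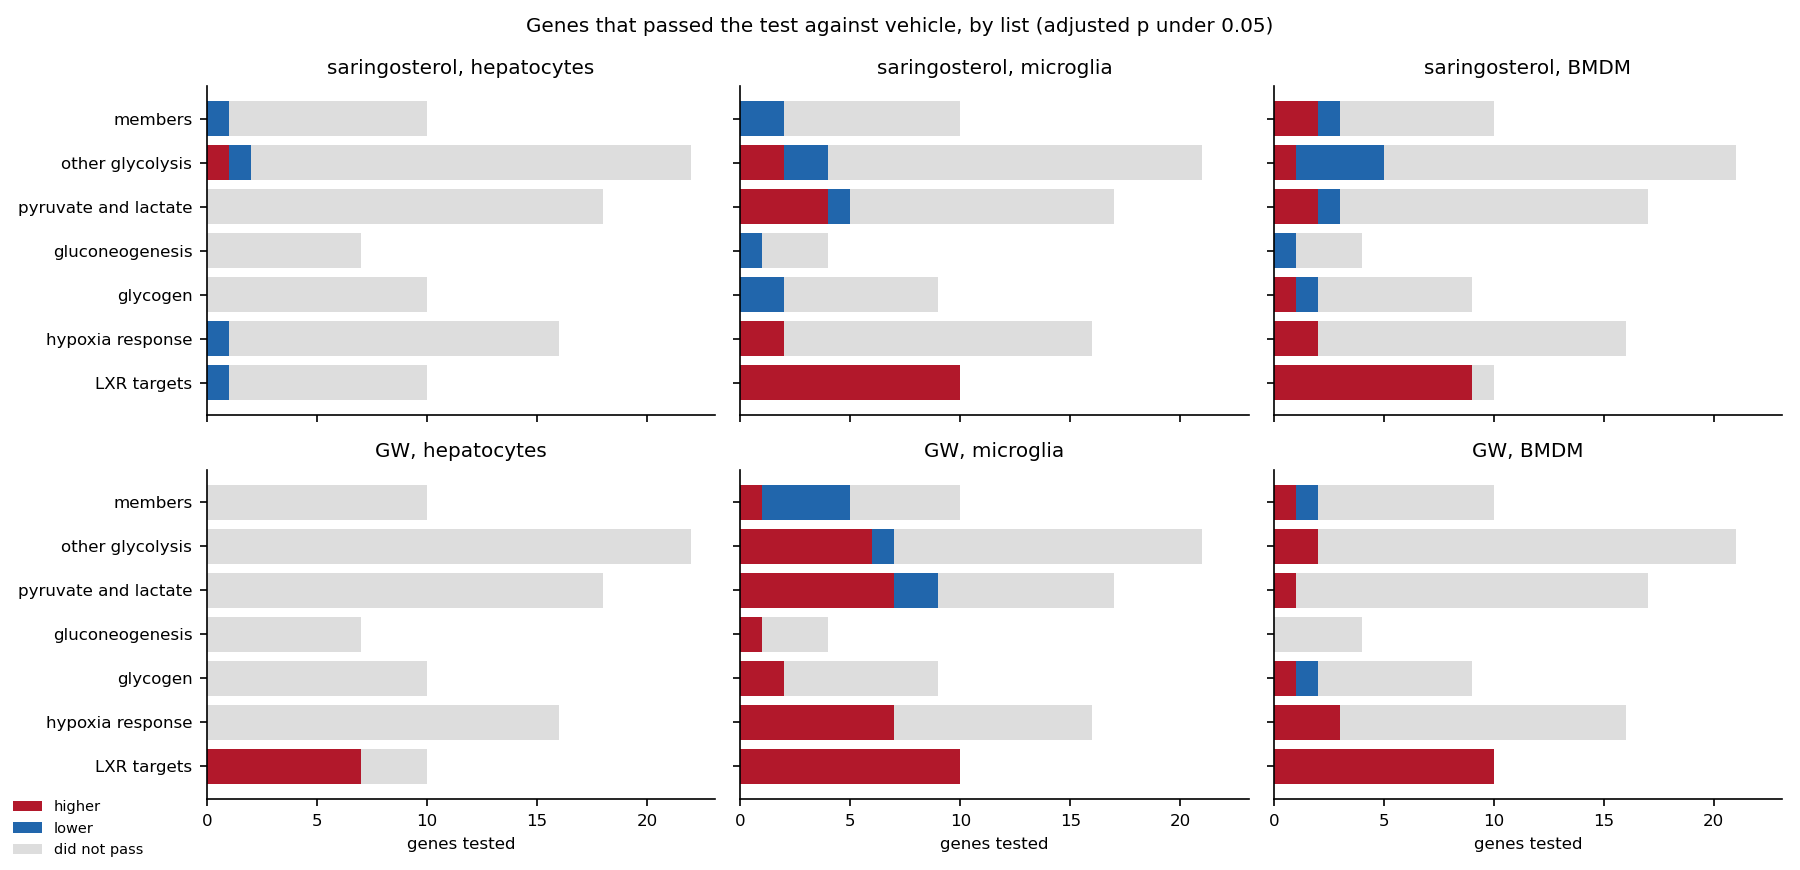
Number of genes tested (x axes, counts) in the 10 members and 6 gene lists that were higher, lower or did not pass the test against vehicle, one panel per compound and cell type. LXR targets fill their bars with GW in microglia and BMDM, while the bars of the members hold at most 5 of 10 that passed, with GW in microglia.

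Genes with the most similar responses were sought for the 2 members called in 3 of the 6 treatment comparisons, among 8355 other genes tested in all cell types with a mean log2 CPM above 3. The measure was the root mean square difference of the 6 log2 fold changes against vehicle. Closest to Slc2a1 were Maip1 (0.0602), Ptgr1 (0.0627) and Gm8483 (0.0631) log2 units. Closest to Pfkp were Kpna4 (0.0967), Pdp1 (0.100) and Alcam (0.119), of which Pdp1 is a phosphatase of pyruvate dehydrogenase. The 6 values share their vehicle libraries in pairs, and the likeness is a description.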

How the data were processed

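Polyadenylated RNA was sequenced from 27 libraries. Per the submitters' processing notes, bcl2fastq, the aligner STAR 2.5.1a, the build GRCm38 and featureCounts 1.4.6-p5 from Subread were used. For the annotation, the strand setting and reads that match several genes, no statement was found and they count as not given in the sources used here. Whole counts of reads per gene were deposited by the authors, and beside them CPM, FPKM and TPM values that the authors computed. The deposited TPM values were used for levels, the counts for every test, and the deposited CPM and FPKM values for none; marker sums in CPM were computed from the counts and library totals. The files held 55487 identifiers, on 55774 lines of the series table because 168 identifiers were repeated. With totals of 30295862 to 41040268, the 3 counts that a count of 0 allows are under 0.1 CPM, for counting error only.

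Fits used edgeR 4.0.16 in R 4.3.3 (filterByExpr, TMM, robust quasi-likelihood F test), 1 for the 9 libraries of each cell type, 1 for the 9 vehicle libraries and 1 for all 27 with interaction contrasts. Calls required an adjusted p below 0.05, with Benjamini-Hochberg adjustment across every gene in the fit. SE is the size of the log2 fold change divided by the square root of F, and 95% intervals reach 1.96 SE to each side. The common coefficient of biological variation was 0.0666 (microglia), 0.113 (BMDM) and 0.0654 (hepatocytes). The scripts were tested on simulated data in which all changes were larger than those of the members against vehicle. That test therefore does not tell how well changes of the members' size are found. None of the 27 replicate pairs was identical, and their counts differed beyond sampling noise, with chi-square values of 3.61 to 33.54 for each degree of freedom.

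The members and the gene and marker lists were chosen with earlier results of these data known. The text names the 10 members in every comparison, up to 4 called genes with the largest change from each list and comparison, and for members called in 3 or more of 6 treatment comparisons the 3 most similar genes. Eno1b, Apoe, the cell type markers and the isozymes set beside members are named outside that rule. Promoters come from RefSeq on GRCm38.p6. Alternatives were DESeq2 1.42.0, limma-voom (limma 3.58.1), median-ratio size factors, library totals, no filter on low counts, a replicate block and leaving out each library; adding the counts of near copies to their members, and list counts without BMDM saringosterol library 3, were chosen after seeing the data. Some isozymes are not reported here.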

Additional observations from a re-analysis of the deposited data

Results flagged for a closer look

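In 9 cases the response of a gene to a compound differed between 2 kinds of cell, which is why they are listed. The test was the interaction test of edgeR, with Benjamini-Hochberg adjustment over 18979 genes. Each difference is the log2 response in the first kind of cell minus that in the second, from the fit of all 27 libraries. The single responses printed beside it come from the separate fits of each cell type, so they need not subtract to it exactly. No cause was tested.

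For saringosterol, the response of Pfkp was higher by 0.41 (SE 0.10, adjusted p = 0.0219) in hepatocytes, with 0.22, than in microglia, with -0.23; the call ended without hepatocyte saringosterol library 2 (adjusted p = 0.0837), hepatocyte vehicle library 1 (0.0708), microglia saringosterol library 2 (0.0576), microglia vehicle library 1 (0.0521) or microglia vehicle library 3 (0.0501). The response of Slc2a1 was higher by 0.28 (SE 0.08, adjusted p = 0.0196) in hepatocytes, with -0.01, than in BMDM, with -0.33; the call ended without BMDM saringosterol library 1 (adjusted p = 0.0545) or 3 (0.0517), BMDM vehicle library 2 (0.0654) or hepatocyte saringosterol library 2 (0.0669). The response of Pgk1 differed by -0.40 (SE 0.09, adjusted p = 0.0039), with -0.11 in hepatocytes and 0.25 in BMDM. The response of Ldha differed by -0.27 (SE 0.08, adjusted p = 0.0213), with -0.12 in hepatocytes and 0.11 in BMDM, neither of which passed alone; the call ended without BMDM saringosterol library 3 (adjusted p = 0.0729), BMDM vehicle library 1 (0.0719) or 2 (0.0520), hepatocyte saringosterol library 2 (0.0556) or hepatocyte vehicle library 1 (0.0581) or 3 (0.0781).

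Between microglia and BMDM, the response of Slc2a1 to saringosterol was higher by 0.35 (SE 0.08, adjusted p = 0.0117), with 0.03 in microglia and -0.33 in BMDM, and the call ended without BMDM vehicle library 2 (0.32, adjusted p = 0.0511). The response of Pfkp to saringosterol differed by -0.52 (SE 0.09, adjusted p = 0.00179), with -0.23 in microglia and 0.28 in BMDM.

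For GW, the response of Pfkl differed by -0.33 (SE 0.10, adjusted p = 0.0308), with 0.07 in hepatocytes and 0.39 in microglia. That call ended without hepatocyte GW library 1 (adjusted p = 0.0556) or 2 (0.116), hepatocyte vehicle library 1 (0.102) or 3 (0.118), microglia GW library 1 (0.0518) or 3 (0.0922) or microglia vehicle library 1 (0.0980) or 2 (0.0725), and with library totals (-0.25, adjusted p = 0.0806). The response of Pfkp was higher by 0.54 (SE 0.10, adjusted p = 0.000169) in hepatocytes, with 0.08, than in microglia, with -0.48. Between microglia, with -0.48, and BMDM, with -0.17, the response of Pfkp to GW differed by -0.32 (SE 0.09, adjusted p = 0.0244), and the call ended without BMDM GW library 1 (adjusted p = 0.0619), BMDM vehicle library 1 (0.0617) or 2 (0.0876), microglia GW library 1 (0.0773) or microglia vehicle library 3 (0.0553).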

How the results depend on the processing

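With 1 library left out, the number of members called ranged from 2 to 3 with saringosterol and 5 to 6 with GW in microglia, 1 to 3 and 2 to 3 in BMDM, and 0 to 3 and 0 to 0 in hepatocytes. It ranged from 9 to 9 between vehicle hepatocytes and microglia, 9 to 10 between hepatocytes and BMDM and 5 to 7 between microglia and BMDM. For differences in response to saringosterol it ranged from 0 to 1 (hepatocytes and microglia), 1 to 3 (hepatocytes and BMDM) and 1 to 2 (microglia and BMDM), and for GW from 1 to 2, 0 to 1 and 0 to 1. Of the other settings, library totals gave 4 members with GW in BMDM, 1 for the GW response between hepatocytes and BMDM and 2 for that between microglia and BMDM. DESeq2 gave 2 members with saringosterol in hepatocytes and 1 for the GW response between hepatocytes and BMDM. No filter on low counts gave 2 for the GW response between microglia and BMDM, and adding near copies gave 0 with saringosterol in hepatocytes. The cause of these changes was not tested. Libraries that share a replicate number showed little shared deviation (r from -0.148 to 0.111 over 36 pairs, 1 of them over 0.1). With 3 libraries per group this cannot decide whether equal numbers pair the samples, and the labels do not say. The fit with a replicate block gave 2 members with saringosterol in hepatocytes. It gave 3 for the GW response between hepatocytes and microglia and 2 for that between microglia and BMDM. For single members, 1203 of 1332 values with a library left out kept their direction and their side of the threshold, 43 lost the call, 16 gained it, 0 called values reversed and 70 that never passed changed sign. With other settings these were 1045 of 1086, 5, 24, 0 and 12. The 1332 and 1086 values include those that did not pass at first, so these counts do not give the share of calls that held.

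Over all genes, saringosterol in hepatocytes called 307 genes, but 563 with DESeq2, 491 with no filter, 782 with the replicate block, 203 and 93 without saringosterol libraries 1 and 2, and 140, 803 and 86 without vehicle libraries 1, 2 and 3. GW in hepatocytes called 178, or 286 with the block. In BMDM, saringosterol called 1643, or 1008 and 846 without vehicle libraries 1 and 2, and GW 1606, or 965 and 896 without GW libraries 2 and 3 and 911 and 909 without vehicle libraries 1 and 2. For responses to saringosterol, 224 (hepatocytes and microglia), 1918 (hepatocytes and BMDM) and 382 (microglia and BMDM) became 555, 2948 and 1075 with DESeq2, the last 700 with no filter, and 131 to 269, 1220 to 2381 and 161 to 681 with a library left out; for GW between hepatocytes and BMDM, 899 became 1518 with DESeq2. The share of called genes that were higher moved with library totals to 33.0%, against 46.9%, for GW in microglia, 42.5%, against 54.3%, for GW in BMDM, and 62.1%, against 46.6%, for saringosterol in hepatocytes (59.9% with no filter). It moved to 63.0%, against 49.4%, between vehicle hepatocytes and microglia and to 63.1%, against 49.8%, between hepatocytes and BMDM. For responses it moved to 39.7%, against 23.2% (saringosterol, hepatocytes and microglia; 37.6% with no filter), 48.4%, against 31.0% (saringosterol, hepatocytes and BMDM), 64.7%, against 41.9% (GW, hepatocytes and microglia), and 53.1%, against 33.7% (GW, hepatocytes and BMDM); median-ratio factors gave 28.1%, against 38.2%, for saringosterol between microglia and BMDM. With 3 libraries per group, the SE of a member's log2 fold change against vehicle lay between 0.03 and 0.17, which limits the size of change that could be detected.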

Other observations

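With vehicle alone, the neighbouring pathways also differed between hepatocytes and microglia (SD, n = 3 throughout). Of 26 other glycolysis genes, 10 were higher and 14 lower in hepatocytes than in microglia, of 18 pyruvate and lactate genes 10 and 7, of 7 gluconeogenesis genes 4 and 3, of 10 glycogen genes 5 and 4 and of 17 hypoxia genes 10 and 5, where 37.7% of all genes were higher and 38.6% lower. Fbp1, the fructose bisphosphatase of gluconeogenesis, averaged 79.8 ± 2.94 TPM in hepatocytes and 1.45 ± 0.498 TPM in microglia. Pcx, the pyruvate carboxylase that starts that route, averaged 48.01 ± 1.58 TPM in hepatocytes and 6.05 ± 0.137 TPM in microglia, while Pck1 averaged 2.83 ± 0.581 TPM in hepatocytes and 0.0152 ± 0.0263 TPM in microglia and G6pc 0.719 ± 0.113 TPM in hepatocytes and 0.0213 ± 0.0185 TPM in microglia. Gys2, the liver glycogen synthase, had 5.37 ± 0.656 TPM in hepatocytes and was listed at 0 in microglia. Pdk4, a kinase that switches pyruvate dehydrogenase off, averaged 46.9 ± 4.04 TPM in hepatocytes and 0.0371 ± 0.0642 TPM in microglia, and its relative Pdk1 2.90 ± 0.467 TPM in hepatocytes and 24.1 ± 0.307 TPM in microglia. Slc16a3, a lactate exporter, averaged 1.15 ± 0.746 TPM in hepatocytes and 35.6 ± 1.23 TPM in microglia. Mlxipl, the glucose-sensing factor ChREBP, averaged 12.3 ± 0.51 TPM in hepatocytes and 0.162 ± 0.0762 TPM in microglia, and Txnip, which is known as its target, 9.49 ± 0.661 TPM in hepatocytes and 353 ± 3.71 TPM in microglia. Among hypoxia genes, Car9, a carbonic anhydrase, averaged 0.0714 ± 0.0746 TPM in hepatocytes and 9.23 ± 0.52 TPM in microglia, whereas Ddit4 averaged 59.9 ± 1.80 TPM in hepatocytes and 1.99 ± 0.548 TPM in microglia.

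Between microglia and BMDM with vehicle, 6 of the 26 other glycolysis genes were higher in microglia and 4 lower, where 25.8% of all genes were higher and 23.4% lower. Aldoc averaged 7.82 ± 0.687 TPM in microglia and 17.9 ± 2.79 TPM in BMDM, Tigar, a phosphatase that lowers an activator of phosphofructokinase, 15.96 ± 0.335 TPM in microglia and 7.06 ± 0.784 TPM in BMDM, and Nr1h3, which encodes LXR alpha, 24.3 ± 1.92 TPM in microglia and 116 ± 5.57 TPM in BMDM.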
